A study of Mus musculus with 100 samples.

Results

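Wnt ligands, their receptors and the secreted proteins that hold them back were followed across 18 RNA-seq libraries of mouse fibroblasts, induced pluripotent stem cells (iPSCs) and embryonic stem cells (ESCs). They were chosen by symbol alone, as the Wnt, Fzd, Sfrp, Dkk and Rspo families with Frzb, Dkkl1, Lrp5, Lrp6, Ror1 and Ror2, which gave 47 of the 25965 genes of the table. These 47 genes are 19 Wnt ligands, 10 Frizzled receptors, 4 co-receptors, 4 R-spondins and 10 secreted antagonists. Wnt proteins are secreted ligands that carry a lipid, which the acyltransferase Porcn attaches and which the carrier Wls needs to bring them out of the cell. A Wnt that joins a Frizzled to Lrp5 or Lrp6 keeps the kinase Gsk3 from marking beta-catenin for breakdown, and beta-catenin then acts with TCF and LEF factors on target genes. Wnt5a with Ror1 or Ror2 is the textbook case of a signal outside that route, R-spondins keep receptors on the cell surface, Sfrp proteins bind Wnts, and Dkk1, Dkk2 and Dkk4 block Lrp5 and Lrp6. In mouse ESCs the beta-catenin route supports self-renewal.

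The cells were crosses of a BL6 mother with a CAST father, so that reads over informative SNPs could be assigned to the maternal or the paternal allele. Female MEFs (mouse embryonic fibroblasts) came from a mid-gestation embryo whose mother carried the i4F cassette, which makes the reprogramming factors Oct4, Sox2, Klf4 and c-Myc on doxycycline, and they were grown in medium with serum. The female iPSC lines F KSR2 and F KSR4 came from MEFs of a single female embryo, and M KSR3 and M KSR5, which are male, from those of a single male embryo of the same cross. They were induced with doxycycline in medium with knockout serum replacement (KSR) and LIF, picked as colonies, and expanded on feeder cells without doxycycline. TX 2i ESCs are a single female ESC line of the same parental strains, kept in serum and LIF with the Gsk3 inhibitor CHIR99021 and the Mek inhibitor PD0325901. Each line is thus 1 clone, each sex 1 embryo, and the inhibitors, the origin of the cells and the base medium all differ between the KSR-iPSCs and the TX 2i ESCs and cannot be told apart. Each of the 6 groups had 3 libraries, labelled as biological triplicates.

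The libraries held 13183036 to 17921280 reads on genes. Values are log2 RPM, reads scaled to a common library size, with no correction for gene length, and in the text a level is such a log2 value unless another unit is given. A gene with no read stands between -4.45 and -4.04 on this scale. Summed markers of pluripotent cells reached 3236 to 7618 RPM in the 15 iPSC and ESC libraries and 1.40 to 2.29 RPM in the MEFs. All 10 fibroblast markers were read in every MEF library. Over those 10 markers, the median level was at most 0.243% of that of the MEFs in 14 of the 15 pluripotent libraries and 0.627% in replicate 3 of M KSR5. The libraries of F KSR4 differed most among themselves: the median squared difference between 2 libraries, in units of the sampling noise of their reads, was 74.5 and 84.1 for the pairs with replicate 2 and 53.4 for the other pair, against 3.02 to 27.8 in the other groups. The main counts are therefore also given without replicate 3 of M KSR5 and replicate 2 of F KSR4.

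Promoters were read from RefSeq on GRCm38.p6, from 250 bases before to 50 bases after the start of transcription, and 31 of the 47 genes had an entry, with 34 promoters between them. The letters CTTTGAT, a form of the site that TCF and LEF factors read, were searched on both strands, where the reverse strand reads ATCAAAG. They stood in 2 of these 34 promoters, or 5.88%, and in 3.73% of all 32851 promoters of the same length. The 34 promoters were rich in CpG, with a median of 26.5 CpG dinucleotides and 67.8% G and C, against 7 and 52.7% over all promoters. The 2 promoters with the letters are shown first, with the match in capitals, followed by those of Fzd7 and Dkk1, which hold none and belong to a receptor and an antagonist called between KSR-iPSCs and the ESCs.
Wnt5b, chr6:119449337-119449636, - strand: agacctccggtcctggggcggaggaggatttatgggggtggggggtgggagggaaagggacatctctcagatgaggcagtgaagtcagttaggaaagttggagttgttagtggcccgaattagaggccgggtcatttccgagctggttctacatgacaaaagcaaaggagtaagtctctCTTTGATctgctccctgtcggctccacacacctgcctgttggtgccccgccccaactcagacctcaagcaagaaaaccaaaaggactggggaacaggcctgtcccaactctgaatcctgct
Wnt11, chr7:98834862-98835161, + strand: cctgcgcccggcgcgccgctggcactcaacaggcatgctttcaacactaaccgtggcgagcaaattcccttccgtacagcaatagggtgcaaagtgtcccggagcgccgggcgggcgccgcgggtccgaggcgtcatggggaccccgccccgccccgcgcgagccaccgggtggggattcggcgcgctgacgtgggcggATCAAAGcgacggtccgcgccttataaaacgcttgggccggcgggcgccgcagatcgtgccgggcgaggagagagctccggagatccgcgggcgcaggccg
Fzd7, chr1:59481897-59482196, + strand: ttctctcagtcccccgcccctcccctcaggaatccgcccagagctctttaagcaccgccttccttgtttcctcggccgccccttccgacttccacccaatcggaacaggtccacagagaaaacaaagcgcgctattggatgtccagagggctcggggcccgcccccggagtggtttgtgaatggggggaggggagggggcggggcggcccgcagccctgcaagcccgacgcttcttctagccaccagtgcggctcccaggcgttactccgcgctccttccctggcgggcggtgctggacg
Dkk1, chr19:30549447-30549746, - strand: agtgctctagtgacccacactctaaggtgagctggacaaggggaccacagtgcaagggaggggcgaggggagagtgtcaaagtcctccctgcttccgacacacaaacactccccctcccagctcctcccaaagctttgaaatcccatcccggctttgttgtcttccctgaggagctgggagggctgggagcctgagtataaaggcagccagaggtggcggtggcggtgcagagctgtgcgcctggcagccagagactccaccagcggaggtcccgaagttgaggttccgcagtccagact
The Wnt5b start shown is 1 of 3 in the table and holds 7 CpG, and the Wnt11 start shown is 1 of 2 and holds 45. The Fzd7 promoter holds 24 CpG and the Dkk1 promoter 9. A match of letters is a description and not a binding site.

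In every group the mean level of the receptor Fzd7 lay above that of each of the 19 ligands. Levels were compared between genes as RPM per kilobase of exon (mean ± SD, n = 3). In female MEFs, Dkk3 stood first with 43.0 ± 19.3, followed by Fzd2 with 34.1 ± 9.14, Fzd1 with 31.5 ± 9.62 and Fzd7 with 24.9 ± 2.15. The highest ligand of the MEFs was Wnt5a with 13.0 ± 1.07. The ranges of Dkk3, Fzd2 and Fzd1 across MEF libraries overlapped, so their order is not fixed by these data.

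Fzd7, a Frizzled receptor of the beta-catenin route, led 3 of the 4 KSR-iPSC lines, with 26.5 ± 4.97 RPM per kilobase in M KSR5, 23.8 ± 8.60 in F KSR4 and 20.9 ± 6.56 in F KSR2. Its range overlapped that of Sfrp1, the next gene, in F KSR2 and F KSR4 and not in M KSR5. In M KSR3, Fzd5 with 24.6 ± 1.87, Fzd7 with 24.5 ± 4.38 and Sfrp1 with 23.1 ± 0.417 lay within each other's spread. TX 2i ESCs were led by Sfrp1, a secreted Wnt binder, with 41.8 ± 10.5 against 9.54 ± 1.03 for Ror2, the next gene. The lowest TX library for Sfrp1, at 30.3, lay above the highest for Ror2, at 10.7. The highest ligand on the same per-length scale was Wnt7b in F KSR2 with 3.25 ± 4.11, Wnt6 in F KSR4 with 3.37 ± 3.26 and in M KSR3 with 4.33 ± 1.96, Wnt8a in M KSR5 with 4.39 ± 0.849 and Wnt5b in TX 2i ESCs with 1.08 ± 0.235.

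**Figure D1:**
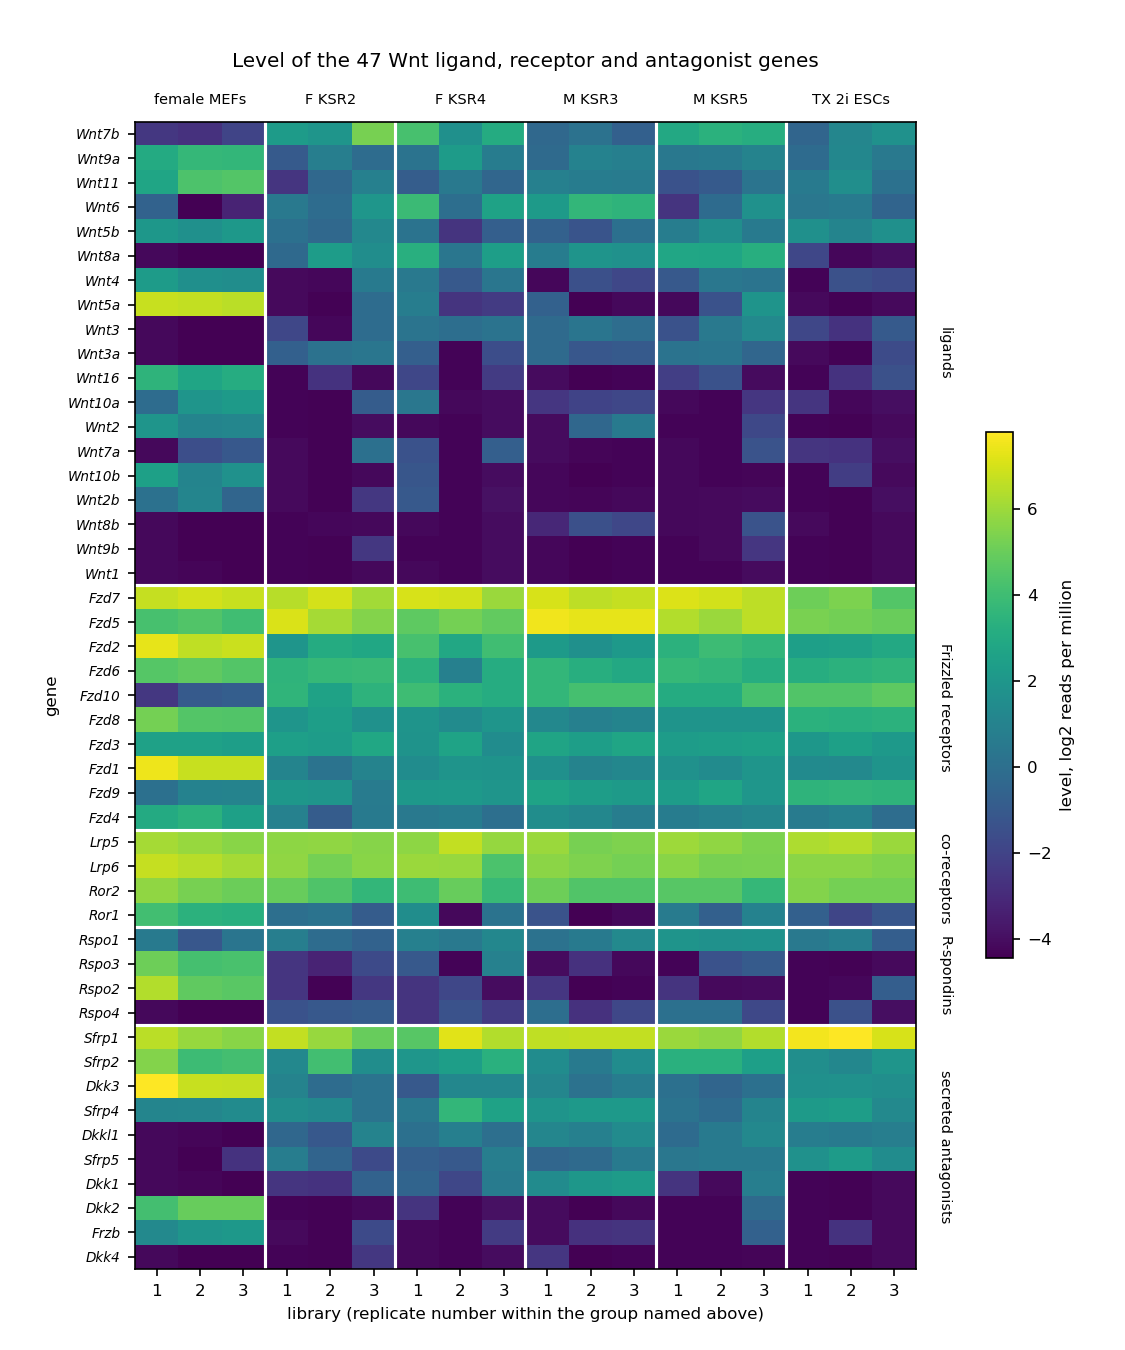
Level in log2 RPM (colour) of the 47 genes (rows, grouped by role) in the 18 libraries (columns, 3 replicates per group). Fzd5, Fzd7, Lrp5, Lrp6, Ror2 and Sfrp1 lie above a level of 3 in all 18 columns, while Wnt5a, Dkk3, Fzd1 and Fzd2 are brightest in the 3 female MEF libraries.

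The first comparison asked what differs between fibroblasts and pluripotent cells. Wnt5a, Wnt16, Rspo2 and Dkk2 were at few or no reads in most pluripotent libraries, Fzd1, Fzd2 and Dkk3 were far lower there than in MEFs, and a smaller set of ligands, receptors and antagonists was read there and hardly or not in MEFs. Of the 47 genes, 40 had a level above 0 in at least 3 libraries and were tested with limma over all 18 libraries. Of these, 11 were higher in the pluripotent groups and 23 lower, with 6 not called, at a Benjamini-Hochberg adjusted p under 0.05. Over all 14632 genes tested, 42.1% were higher and 32.5% lower. The median log2 difference was -1.53 over the 40 genes and 0.21 over all genes tested. A gene whose level is above 0 in only 1 kind of cell passes the filter there and has to differ, and this held for 9 of the 11 higher genes and for 5 of the 23 lower ones. Among the 26 genes with levels above 0 on both sides, 2 were higher, 18 lower and 6 not called. Of these 18, Wnt2, Wnt5a, Wnt10a and Rspo3 had fewer than 3 pluripotent libraries above 0. These genes too would not have passed the filter without the MEF libraries, where they were high. The shares over all genes also take in genes above 0 on 1 side alone. They are thus no matched background for this split, and none was taken. Without replicate 3 of M KSR5 and replicate 2 of F KSR4 the counts over the 40 genes stayed at 11 and 23. Over all genes, the number called went from 10917 to 11352. Fewer cells with a transcript and less of it per cell cannot be told apart in such bulk libraries.

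Among the ligands, 9 of 14 tested were lower in the pluripotent groups and 5 higher. Wnt5a, the main ligand of the Ror receptors (chr14:28504750-28527447, GRCm38, + strand), stood at 6.78, 6.69 and 6.54 in the MEFs and from -4.44 to 1.91 with a median of -4.13 in the 15 pluripotent libraries, a log2 difference of -9.23 (SE 1.07, adjusted p = 4.87e-07). No pluripotent library came near the MEFs, and the highest was replicate 3 of M KSR5 with 65 reads, the library with the highest fibroblast markers. Wnt5a stood there at 3.69% of the mean of the MEFs. Whether fibroblasts account for these reads was not tested. Wnt16, a ligand known from bone, stood at 3.53, 2.75 and 3.14 in the MEFs and from -4.44 to -1.35 with a median of -4.10 in the 15 pluripotent libraries, a log2 difference of -6.37 (SE 0.64, adjusted p = 7.66e-08). Wnt10b, a ligand that holds back fat cell formation, stood at 2.49, 1.06 and 1.75 in the MEFs and from -4.44 to -1.18 with a median of -4.26 in the 15 pluripotent libraries, a log2 difference of -5.68 (SE 0.56, adjusted p = 6.38e-08). For both, each MEF library lay above all pluripotent ones. The other lower ligands were Wnt2, Wnt10a, Wnt11, Wnt4, Wnt9a and Wnt5b, with log2 differences of -4.89, -4.38, -3.90, -3.37, -2.93 and -1.70. Of these only Wnt10a overlapped between MEFs and pluripotent libraries.

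The 5 ligands that were higher were Wnt8a, Wnt7b, Wnt6, Wnt3 and Wnt3a. Wnt8a, a ligand of the early primitive streak (chr18:34542313-34548273, + strand), had 0, 0 and 0 reads in the 3 MEF libraries and from -4.22 to 3.29 with a median of 1.76 on the log2 scale in the pluripotent ones, a log2 difference of 5.20 (SE 0.60, adjusted p = 4.59e-07). With all 3 MEF libraries at 0, its pooled level in the pluripotent libraries was at least 23.3-fold higher than the floor of 3 reads per MEF library, but the 3 TX 2i ESC libraries held only 5, 1 and 1 reads, and replicate 2 lay within the range of the MEFs. Wnt3, which the embryo needs for gastrulation, had 0, 0 and 0 reads in the 3 MEF libraries and from -4.22 to 1.32 with a median of -0.13 on the log2 scale in the pluripotent ones, a log2 difference of 3.63 (SE 0.63, adjusted p = 5.54e-05). Wnt3a, the ligand most used to switch the route on in culture, had 0, 0 and 0 reads in the 3 MEF libraries and from -4.38 to 0.35 with a median of -0.72 on the log2 scale in the pluripotent ones, a log2 difference of 3.07 (SE 0.62, adjusted p = 2.57e-04). Against the same floor the pluripotent level was at least 5.18-fold higher for Wnt3 and at least 3.77-fold higher for Wnt3a. Wnt3 overlapped the MEFs through replicate 2 of F KSR2, with 1 read, and Wnt3a through replicate 2 of F KSR4 and replicate 2 of TX 2i ESCs, with none.

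Wnt7b, a ligand of lung, placenta and vessel development, had 3, 3 and 5 reads in the 3 MEF libraries and from -0.71 to 5.29 with a median of 1.95 on the log2 scale in the pluripotent ones, a log2 difference of 4.34 (SE 0.60, adjusted p = 4.53e-06). Wnt6, an epithelial ligand, had 11, 0 and 2 reads in the 3 MEF libraries and from -2.59 to 3.92 with a median of 0.53 on the log2 scale in the pluripotent ones, a log2 difference of 3.93 (SE 0.87, adjusted p = 5.48e-04). All pluripotent libraries lay above the MEFs for Wnt7b, whereas for Wnt6 replicate 1 of the MEFs lay above replicate 1 of M KSR5. Both varied strongly within lines. In F KSR2, replicate 3 stood at 5.29 for Wnt7b, against 2.25 and 1.95 in its sister libraries. That replicate also had the highest level of its line for each trophectoderm and each primitive endoderm marker. Its sums of mesendoderm, neural and fibroblast markers were the highest of the line too, but the markers within them did not all go that way. The mesendoderm marker Gsc, the neural markers Sox1 and Pax6 and the fibroblast marker Thy1 were lowest there, with Sox1 at 1.84 against 3.59 and 3.59. For trophectoderm markers the sum was 24.7 RPM, against 1.85 RPM in replicate 1, and all 4 markers were read in both. In F KSR4, replicate 3 had 24.2 RPM of these markers with Wnt7b at 3.07, and replicate 1 had 12.0 RPM with Wnt7b at 4.23. Whether other cell types in replicate 3 of F KSR2 account for its level of Wnt7b was not tested.

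Of the 10 Frizzled receptors, 3 were higher, 5 lower and 2 not called. Fzd1, a Frizzled receptor, stood at 7.48, 6.79 and 6.75 in the MEFs and from 0.24 to 1.93 with a median of 1.46 in the 15 pluripotent libraries, a log2 difference of -5.58 (SE 0.26, adjusted p = 3.43e-12). Fzd10, by contrast, stood at -2.45, -0.97 and -0.79 in the MEFs and from 2.60 to 4.74 with a median of 3.65 in the 15 pluripotent libraries, a log2 difference of 5.15 (SE 0.34, adjusted p = 3.10e-10). The 3 MEF libraries lay apart from all pluripotent libraries for both genes, in opposite directions. Fzd2, which also answers Wnt5a, fell by 4.00 on the log2 scale (SE 0.28, adjusted p = 7.24e-10). Fzd8, Fzd4 and Fzd6 fell by 2.73, 2.33 and 1.35. Fzd5 and Fzd9 rose by 1.78 and 1.69, and Fzd9 alone of these 8 receptors overlapped between the groups.

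Fzd7 and Fzd3 were not called. Fzd7 stood at 6.74, 6.95 and 6.75 in the MEFs and from 4.54 to 7.13 with a median of 6.58 in the 15 pluripotent libraries, a log2 difference of -0.44 (SE 0.22, adjusted p = 0.0838). The libraries overlapped, and the 3 TX 2i ESC libraries were the lowest of the 18. Fzd3 differed by -0.15 (SE 0.24, adjusted p = 0.582). Of the co-receptors, Lrp6 fell by 0.96 (SE 0.24, adjusted p = 0.00170), Ror1 by 4.65 and Ror2 by 0.78. The call of Ror2 was lost without replicate 1 of the MEFs, at -0.58 (adjusted p = 0.125, over alternatives 0.00381 to 0.125). Lrp5, a co-receptor akin to Lrp6, stood at 6.15, 5.90 and 5.64 in the MEFs and from 5.28 to 6.69 with a median of 5.77 in the 15 pluripotent libraries, a log2 difference of -0.04 (SE 0.19, adjusted p = 0.854).

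Of the 3 R-spondins tested, 2 were lower. Rspo2 stood at 6.40, 4.81 and 4.65 in the MEFs and from -4.44 to -0.80 with a median of -4.04 in the 15 pluripotent libraries, a log2 difference of -8.58 (SE 0.72, adjusted p = 7.42e-09). Rspo3 stood at 5.08, 4.17 and 4.30 in the MEFs and from -4.38 to 0.92 with a median of -3.22 in the 15 pluripotent libraries, a log2 difference of -7.34 (SE 0.80, adjusted p = 2.26e-07). All MEF libraries lay above all pluripotent ones for both. Rspo1 was low on both sides, with 0.79 (adjusted p = 0.0964). Rspo4 had no read in the MEFs and at most 19 in a pluripotent library, and was not tested.

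The secreted antagonists split. Dkk2, a binder of Lrp6 (chr3:132085292-132180293, + strand), stood at 4.16, 4.93 and 4.97 in the MEFs and from -4.44 to -0.20 with a median of -4.31 in the 15 pluripotent libraries, a log2 difference of -8.56 (SE 0.63, adjusted p = 1.42e-09). Dkk3, a family member that does not bind Lrp6, stood at 7.78, 6.75 and 6.73 in the MEFs and from -1.01 to 1.75 with a median of 0.69 in the 15 pluripotent libraries, a log2 difference of -6.47 (SE 0.41, adjusted p = 2.20e-10). Dkk2 had no read in 10 of the 15 pluripotent libraries, and its highest count there, 15 reads, was again in replicate 3 of M KSR5. Frzb and Sfrp2 fell by 5.17 and 2.39. Dkkl1, a relative of Dkk3 made in germ cells, had 0, 1 and 0 reads in the MEFs and lay from -1.05 to 1.47 with a median of 0.75 on the log2 scale in the pluripotent libraries, at a ratio of pooled levels of 86.7 (95% counting interval 15.5 to 3430). Sfrp5 had 0, 0 and 3 reads in the MEFs and lay from -1.72 to 2.25 with a median of 0.53 in the pluripotent libraries. The same ratio was 29.0 (95% counting interval 9.86 to 141) for Sfrp5 and 63.5 (95% counting interval 11.3 to 2520) for Dkk1, whose limma differences were 4.81 (SE 0.40, adjusted p = 7.60e-09) for Dkkl1, 4.07 (SE 0.50, adjusted p = 9.60e-07) for Sfrp5 and 2.93 (SE 0.72, adjusted p = 0.00148) for Dkk1. The pooled ratio of Dkk1 rests mainly on M KSR3, with 47, 80 and 86 of 305 reads, while the TX 2i ESCs held none. Dkkl1 and Sfrp5 did not overlap between MEFs and pluripotent libraries, whereas Dkk1 did. Sfrp1 and Sfrp4 were not called, at 0.41 and 0.28.

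**Figure D2:**
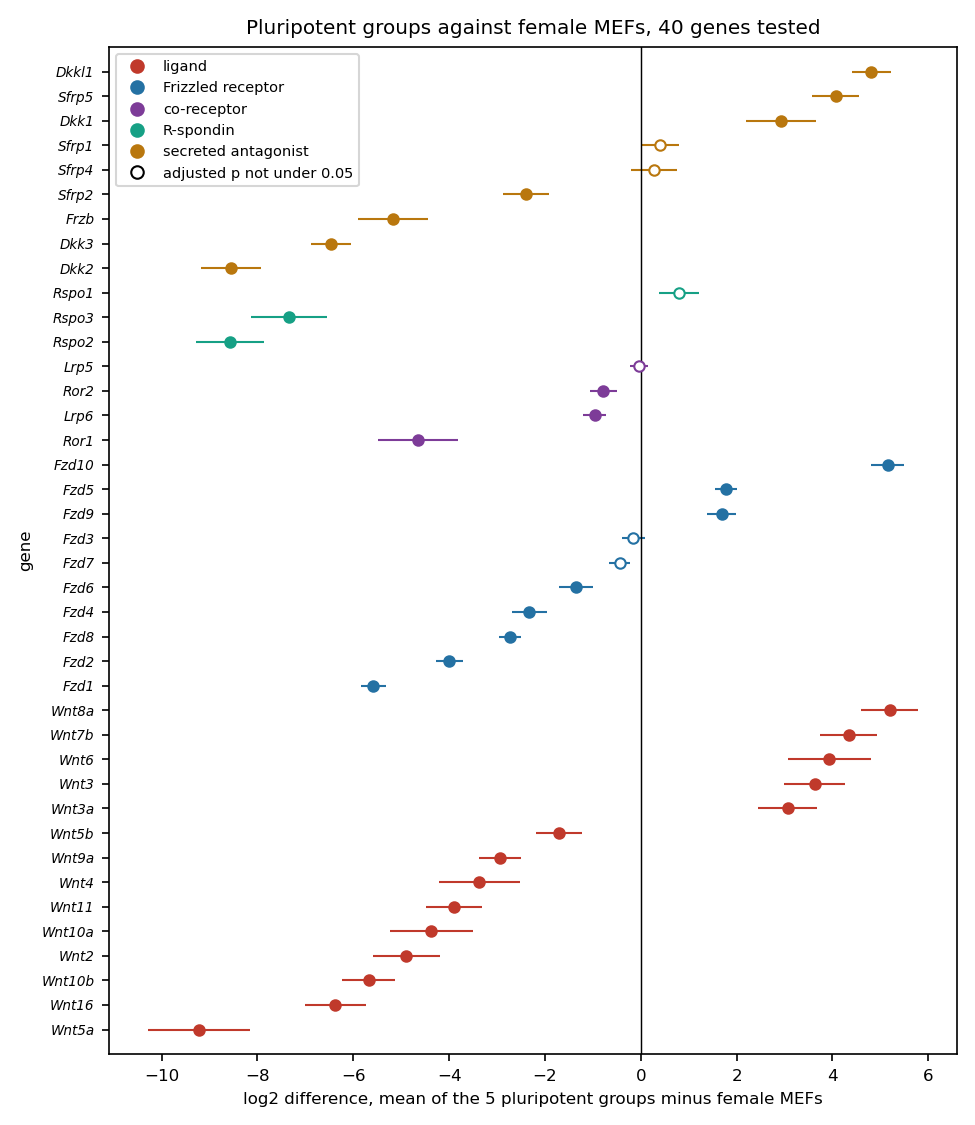
Log2 difference (x axis, mean of the 5 pluripotent groups minus female MEFs, bars 1 standard error of limma) of the 40 genes tested (y axis), coloured by role, with open points for adjusted p not under 0.05. The points run from -9.23 for Wnt5a to 5.20 for Wnt8a, and the 6 open ones lie between -0.44 and 0.79.

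Each pluripotent group was also set against the same MEF libraries. Of the 40 genes, 31 were called in TX 2i ESCs, 32 in M KSR5, 33 in M KSR3, 33 in F KSR4 and 32 in F KSR2. Over all genes tested the shares called were 66.5%, 67.9%, 67.6%, 65.8% and 67.0% in that order. Called higher in all 5 groups were 6 genes (Fzd5, Fzd10, Dkkl1, Wnt3, Wnt7b and Sfrp5), and called lower in all 5 were 19. Of the 6, all but Fzd5 passed the filter only through pluripotent libraries. Dkk2, Frzb, Rspo2, Wnt10b and Wnt16, among the 19, passed it only through MEFs. Wnt2, Wnt5a, Wnt10a and Rspo3, also among the 19, would not have passed it without the MEF libraries. The share of all genes called in every group was not taken, and the contrasts share the MEF libraries. Wnt8a, Wnt3a, Wnt6 and Dkk1 were called higher in 4 of the 5 groups. For Wnt8a, Wnt3a and Dkk1 the group not called was the TX 2i ESCs, where the log2 differences from the MEFs were 1.00, 0.95 and 0.02. Sfrp1, Rspo1 and Fzd7 were each called in 1 group alone, Sfrp1 higher in TX 2i ESCs, Rspo1 higher in M KSR5 and Fzd7 lower in TX 2i ESCs.

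The genes that make, carry and relay the signal came from a list of 37 further pathway genes, of which 32 were tested. Between MEFs and pluripotent groups 12 were higher and 12 lower, beside 42.1% and 32.5% of all genes tested, so the share called was near that of all genes. The largest increases were those of the Dkk1 partner Kremen2 with 3.88 (SE 0.83, adjusted p = 4.19e-04), the factor Tcf7 with 3.63 (SE 0.17, adjusted p = 4.79e-12), the Wnt-cutting enzyme Notum with 3.55 (SE 0.59, adjusted p = 3.62e-05), the acyltransferase Porcn with 2.62 (SE 0.29, adjusted p = 3.15e-07) and the factor Lef1 with 2.61 (SE 0.57, adjusted p = 5.57e-04). The largest decreases were those of the R-spondin receptor Lgr5 with -8.42 (SE 0.40, adjusted p = 3.61e-12), the Wnt carrier Wls with -4.80 (SE 0.31, adjusted p = 2.64e-10), Lgr6 with -1.98 (SE 0.73, adjusted p = 0.0217), the secreted Wnt binder Wif1 with -1.85 (SE 0.56, adjusted p = 0.00670) and the receptor Ryk with -1.65 (SE 0.13, adjusted p = 4.52e-09). The enzyme that acylates Wnts was thus higher and the carrier that exports them lower. The mean level of Wif1 was 0.43 in TX 2i ESCs and 0.50 in the MEFs. Its decrease thus rests on the KSR-iPSC lines, with means from -3.08 to -0.42. Lgr5 had a level above 0 only in MEF libraries and Kremen2 only in pluripotent ones. Each passed the filter only through the cells where it was high, and had to differ.

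KSR-iPSCs were compared with TX 2i ESCs to place the iPSC lines beside an ESC line of the same cross. Wnt8a, Wnt3a and the antagonist Dkk1 were read in the iPSCs and barely or not in the ESCs, Fzd7 and Fzd5 were higher in the iPSCs, and Fzd8, Fzd9, Fzd10, Sfrp1 and Sfrp5 were higher in the ESCs. Of the 40 genes tested, 5 were higher and 8 lower in KSR-iPSCs, with 27 not called. Over all 14632 genes tested 23.0% were called, 1615 higher and 1757 lower. Of the 5 higher genes, Wnt8a, Wnt3a and Dkk1 had a log2 level above 0 only in KSR-iPSC libraries, so they passed the filter only through the group where they were high. The median log2 difference was 0.18 over the 40 genes and -0.0045 over all genes tested. Without replicate 3 of M KSR5 and replicate 2 of F KSR4 there were 6 higher and 9 lower. Over all genes, the number called rose too, from 3372 to 4322. The count of 13 ran from 6 to 16 as single libraries were left out, and was moved by over 1.5 times by replicates 1 and 2 of the TX 2i ESCs.

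Wnt8a lay from -0.25 to 3.29 with a median of 2.10 in the 12 KSR-iPSC libraries and at -1.83, -4.22 and -3.97 in the TX 2i ESCs, a log2 difference of 5.25 (SE 0.61, adjusted p = 1.49e-05). All 12 KSR-iPSC libraries, at 15 to 178 reads, lay above the ESCs, at 5, 1 and 1 reads, and the call held in each of the 4 lines. Wnt3a lay from -4.33 to 0.35 with a median of -0.55 in the 12 KSR-iPSC libraries and at -4.16, -4.38 and -1.65 in the TX 2i ESCs, a log2 difference of 2.65 (SE 0.63, adjusted p = 0.00591). Replicate 2 of F KSR4 had no read and overlapped the ESCs, and the call was lost without replicate 1 or replicate 2 of the ESCs (adjusted p over alternatives 4.56e-04 to 0.0623). Wnt5b, a ligand best known outside the beta-catenin route, lay from -2.59 to 1.60 with a median of 0.08 in the 12 KSR-iPSC libraries and at 1.68, 1.10 and 1.70 in the TX 2i ESCs, a log2 difference of -1.57 (SE 0.49, adjusted p = 0.0275). The groups overlapped, and it lost its call without any 1 of the ESC libraries (adjusted p over alternatives 0.00775 to 0.113). The other 11 ligands tested were not called, with log2 differences from -0.96 for Wnt11 to 2.08 for Wnt5a. Wnt5a had 137 reads over the 12 iPSC libraries and 1 over the 3 ESC libraries. Of the 137, 65 came from replicate 3 of M KSR5, with its higher fibroblast markers, whose part in these reads was not tested.

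Fzd7 (chr1:59482147-59486947, + strand) lay from 5.98 to 7.13 with a median of 6.84 in the 12 KSR-iPSC libraries and at 5.11, 5.39 and 4.54 in the TX 2i ESCs, a log2 difference of 1.70 (SE 0.23, adjusted p = 5.31e-05). Every KSR-iPSC library lay above every ESC library, and Fzd7 was higher in each line, by 1.51 to 1.88. The level of Fzd7 in the iPSCs overlapped that in the MEFs, at 6.74, 6.95 and 6.75. Fzd5, another receptor of the beta-catenin route (chr1:64730560-64737750, - strand), lay from 4.75 to 7.53 with a median of 6.28 in the 12 KSR-iPSC libraries and at 5.34, 5.21 and 4.98 in the TX 2i ESCs, a log2 difference of 1.05 (SE 0.23, adjusted p = 0.00292). This difference was not shared by F KSR4, at -0.24 (adjusted p = 0.629). Fzd8 lay from 0.88 to 2.42 with a median of 1.89 in the 12 KSR-iPSC libraries and at 3.36, 3.27 and 3.40 in the TX 2i ESCs, a log2 difference of -1.65 (SE 0.23, adjusted p = 9.29e-05). Fzd9 lay from 0.66 to 2.74 with a median of 2.15 in the 12 KSR-iPSC libraries and at 3.53, 3.60 and 3.49 in the TX 2i ESCs, a log2 difference of -1.44 (SE 0.31, adjusted p = 0.00259). For both, the ESC libraries lay above all iPSC libraries, and both were lower in each of the 4 lines. Fzd10 lay from 2.60 to 4.24 with a median of 3.52 in the 12 KSR-iPSC libraries and at 4.48, 4.47 and 4.74 in the TX 2i ESCs, a log2 difference of -1.02 (SE 0.34, adjusted p = 0.0414). The groups did not overlap, but the call was lost on leaving out any 1 of 10 libraries (adjusted p over alternatives 0.00374 to 0.158). These were replicate 2 of F KSR2, replicate 3 of F KSR4, all replicates of M KSR3 and TX 2i ESCs, and replicates 1 and 2 of M KSR5. Ror2 lay from 3.68 to 5.11 with a median of 4.47 in the 12 KSR-iPSC libraries and at 5.51, 5.25 and 5.24 in the TX 2i ESCs, a log2 difference of -0.93 (SE 0.28, adjusted p = 0.0229). The groups did not overlap, and this call too needed all 3 ESC libraries (adjusted p over alternatives 0.00587 to 0.110). Lrp5, Lrp6, Fzd6 and Fzd2, each above a level of 3 in all libraries of at least 1 group, were not called, at -0.47, -0.16, -0.15 and 0.34.

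Dkk1, the Lrp6 blocker that beta-catenin itself switches on (chr19:30545863-30549665, - strand), lay from -4.16 to 2.26 with a median of -0.53 in the 12 KSR-iPSC libraries and at -4.31, -4.38 and -4.13 in the TX 2i ESCs, a log2 difference of 3.63 (SE 0.74, adjusted p = 0.00190). The ESC libraries held no read. Against the floor of 3 reads per ESC library, Dkk1 was at least 22.4-fold higher in M KSR3, at least 4.90-fold in F KSR4, at least 3.77-fold in M KSR5 and at least 1.92-fold in F KSR2. It was called in M KSR3 and F KSR4. Sfrp5 lay from -1.72 to 0.81 with a median of 0.10 in the 12 KSR-iPSC libraries and at 1.73, 2.25 and 1.49 in the TX 2i ESCs, a log2 difference of -1.90 (SE 0.51, adjusted p = 0.0120). Sfrp1 (chr8:23411502-23449632, + strand) lay from 4.63 to 7.27 with a median of 6.39 in the 12 KSR-iPSC libraries and at 7.60, 7.80 and 7.05 in the TX 2i ESCs, a log2 difference of -1.32 (SE 0.39, adjusted p = 0.0208). The ESC libraries lay above all KSR-iPSC libraries for Sfrp5. For Sfrp1 only replicate 2 of F KSR4, at 7.27, reached into their range. The call was lost without replicate 2 of the ESCs for Sfrp5 (adjusted p over alternatives 5.90e-04 to 0.0775), and without replicate 1 or 2 for Sfrp1 (0.00328 to 0.114). Dkk3 lay from -1.01 to 1.24 with a median of 0.19 in the 12 KSR-iPSC libraries and at 1.68, 1.75 and 1.61 in the TX 2i ESCs, a log2 difference of -1.33 (SE 0.42, adjusted p = 0.0308). The groups did not overlap, but the call needed all 3 ESC libraries (0.0137 to 0.109). The 3 R-spondins tested were not called.

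**Figure D3:**
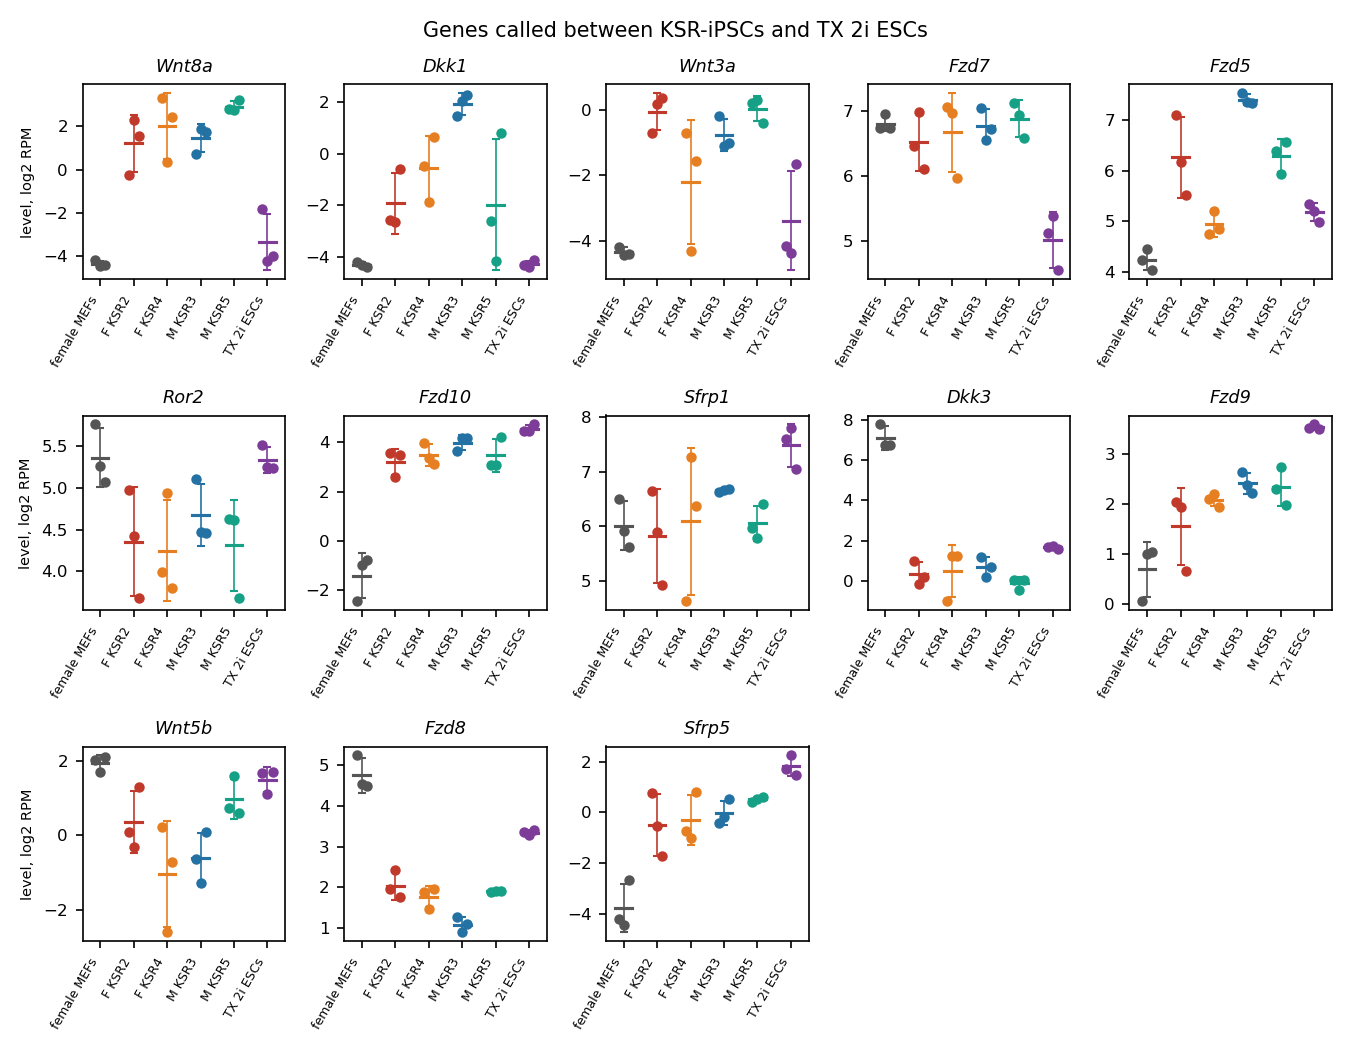
Level (y axis, log2 RPM, scaled for each panel) of the 13 genes called between KSR-iPSCs and TX 2i ESCs in the 6 groups (x axis), with points for the 3 libraries, horizontal bars for means and vertical bars for 1 SD. The 5 genes higher in KSR-iPSCs come first, led by Wnt8a, where the ESC points lie between -4.22 and -1.83.

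Set against the same TX 2i ESC libraries 1 line at a time, 9 of the 40 genes were called in M KSR5, 10 in M KSR3, 8 in F KSR4 and 8 in F KSR2, where the shares over all genes tested were 18.2%, 23.1%, 15.4% and 12.8%. Wnt8a and Fzd7 were higher and Fzd8 and Fzd9 lower in all 4 lines. The share of all genes called in all 4 was not taken, and the lines share the ESC libraries. Leaving out single libraries moved these counts to 5 to 13, 5 to 13, 5 to 12 and 4 to 11 in the same order, by over 1.5 times without replicate 1 of the ESCs in each line, replicate 2 of the ESCs in F KSR2, F KSR4 and M KSR3, and replicate 3 of the ESCs or replicate 2 or 3 of M KSR3 in M KSR3. Some calls belonged to 1 line: Wnt2 was higher in M KSR3 with 2.97 (SE 0.90, adjusted p = 0.0236), and Rspo1 and Wnt7b in M KSR5 with 1.63 and 2.36. Wnt2 had 1, 15 and 27 reads in M KSR3 and none in the ESCs. Against the floor of 3 reads per ESC library it was at least 4.48-fold higher. A call in 1 line alone is no test of a difference between lines, which is given separately.

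In the pathway list, 3 of 32 genes were higher and 7 lower in KSR-iPSCs than in TX 2i ESCs, beside 23.0% of all genes called in either direction. Higher were Porcn with 1.45 (SE 0.30, adjusted p = 0.00205), the factor Tcf7l2 with 1.40 (SE 0.22, adjusted p = 2.26e-04) and the R-spondin receptor Lgr4 with 1.01 (SE 0.23, adjusted p = 0.00463). Lower were, first, the antagonists Apcdd1 with -2.42 (SE 0.27, adjusted p = 8.60e-06) and Wif1 with -2.23 (SE 0.57, adjusted p = 0.00966), then Wls with -1.36 (SE 0.32, adjusted p = 0.00498), Axin2, a common target gene of the beta-catenin route, with -1.13 (SE 0.32, adjusted p = 0.0178) and Dvl3, a relay downstream of Frizzled, with -1.02 (SE 0.22, adjusted p = 0.00301). The kinase Gsk3b was lower by 0.96 and Btrc by 0.57. The ESC medium held a Gsk3 inhibitor, whose part in these differences was not tested.

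The 4 KSR-iPSC lines differed in 4 of the 40 genes, Fzd5, Fzd2, Wnt7b and Dkk1, by limma's moderated F test, whereas 14.1% of all genes tested did. Dkk1 had a log2 level above 0 in 5 libraries, 3 of them of M KSR3, so it passed the filter mainly through the line where it was high. Without replicate 3 of M KSR5 and replicate 2 of F KSR4, 9 were called, the further ones being Wnt6, Ror1, Wnt2, Wnt16 and Rspo3, and over all genes the count rose too, from 2070 to 3202. Between F KSR2 and F KSR4, 1 gene was called, against 1.14% of all genes, and between M KSR3 and M KSR5, 4 genes, against 4.48%. Without the 2 libraries these became 2 and 8, while the counts over all genes went from 167 to 315 and from 656 to 1181. As single libraries were left out, the 4 genes of the F test became 2 to 9, moved by over 1.5 times by replicates 1 and 2 of F KSR4 and replicate 3 of M KSR3. The 1 gene between the female lines became 0 to 5, moved by each of their 6 libraries, and the 4 between the male lines became 0 to 6, moved by replicates 2 and 3 of M KSR3 and 1 and 2 of M KSR5.

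Fzd5 stood at 7.53, 7.36 and 7.34 in M KSR3, 6.39, 5.94 and 6.57 in M KSR5, 4.75, 5.21 and 4.85 in F KSR4 and 7.10, 6.17 and 5.52 in F KSR2 (adjusted p of the F test = 3.73e-04, limma). M KSR3 was highest and F KSR4 lowest, and each lay apart from the libraries of the other 3 lines. F KSR2 exceeded F KSR4 by 1.32 (SE 0.29, adjusted p = 0.0312) and M KSR3 exceeded M KSR5 by 1.11 (SE 0.29, adjusted p = 0.0371). These pairwise calls were not firm. Leaving out replicate 1 or 2 of F KSR2 or replicate 3 of F KSR4, setting the median log2 ratio to 0 or fitting these 6 libraries alone ended the first (adjusted p over alternatives 0.00470 to 0.766), and leaving out any replicate of M KSR3 or replicate 1 or 2 of M KSR5, setting the median log2 ratio to 0 or testing all genes without the filter ended the second (0.00910 to 0.167). Genes within 5 Mb of Fzd5 on chromosome 1 had a median log2 difference of 0.70 between M KSR3 and M KSR5 and 0.09 between F KSR2 and F KSR4. The median of the neighbours was thus well over 0 between the male lines and close to 0 between the female ones.

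Fzd2 stood at 2.22, 1.71 and 2.13 in M KSR3, 3.41, 3.92 and 3.63 in M KSR5, 4.25, 2.88 and 4.04 in F KSR4 and 1.93, 3.08 and 2.84 in F KSR2 (adjusted p of the F test = 0.00786, limma). M KSR3 was lowest, and its libraries overlapped those of F KSR2. The difference from M KSR5 was -1.63 (SE 0.36, adjusted p = 0.0160), while genes within 5 Mb on chromosome 11 lay on the other side, with a median of 0.45. The call between the male lines was lost without replicate 2 or 3 of M KSR3 or replicate 2 of M KSR5 (adjusted p over alternatives 0.00389 to 0.0897). Between the female lines Fzd2 differed by -1.10 (SE 0.36, adjusted p = 0.141), and by -1.53 (adjusted p = 0.0292) once replicate 2 of F KSR4 and replicate 3 of M KSR5 were left out.

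Dkk1 stood at 1.45, 2.04 and 2.26 in M KSR3, -2.59, -4.16 and 0.80 in M KSR5, -0.48, -1.85 and 0.64 in F KSR4 and -2.57, -2.64 and -0.58 in F KSR2 (adjusted p of the F test = 0.0216, limma). All M KSR3 libraries lay above all other libraries of the series. M KSR3 exceeded M KSR5 by 3.90 (SE 0.93, adjusted p = 0.0255), and by 5.29 (adjusted p = 5.94e-04) without replicate 3 of M KSR5, which was the highest of its line, and replicate 2 of F KSR4. Leaving out any 1 library of M KSR3, or fitting the iPSC libraries alone, ended the call of the F test (adjusted p over alternatives 3.36e-04 to 0.0957), and the call between the male lines was lost without replicate 2 or 3 of M KSR3 or replicate 1 or 2 of M KSR5, or in a fit of these 6 libraries alone (5.94e-04 to 0.134). Markers of primitive endoderm also had their highest sum in M KSR3, while the other lines did not rank alike for this sum and Dkk1. Their summed level, over 5 genes that were all read in every iPSC library, was 84.7 to 112 RPM in M KSR3, 12.4 to 40.2 in M KSR5, 13.8 to 20.8 in F KSR4 and 13.8 to 47.4 in F KSR2. In TX 2i ESCs it was 3.59 to 8.07 RPM. Of these markers, Gata4 and Gata6 were higher in each M KSR3 library than in any library of the other lines. Sox17, Sox7 and Foxa2 overlapped between M KSR3 and F KSR2. The part of these markers in the level of Dkk1 was not tested. Wnt6 stood at 2.20, 3.65 and 3.50 in M KSR3 and -2.59, -0.16 and 1.75 in M KSR5. M KSR3 exceeded M KSR5 by 4.49 (adjusted p = 0.0133) without the 2 libraries, against 3.45 (SE 1.12, adjusted p = 0.0910) with them.

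Wnt7b stood at -0.30, 0.17 and -0.71 in M KSR3, 2.96, 3.37 and 3.19 in M KSR5, 4.23, 1.68 and 3.07 in F KSR4 and 2.25, 1.95 and 5.29 in F KSR2 (adjusted p of the F test = 0.0109, limma). M KSR3 lay below all libraries of the other 3 lines. The difference between M KSR3 and M KSR5 was -3.45 (SE 0.78, adjusted p = 0.0180), and genes within 5 Mb on chromosome 15 had a median of -0.35. The call was lost without replicate 2 or 3 of M KSR3 or replicate 1 or 2 of M KSR5 (adjusted p over alternatives 0.00405 to 0.0876), both calls were lost with limma-voom on recovered reads, and that of the F test also without replicate 3 of M KSR3 (0.00427 to 0.0714). In the pathway list, Lef1, Porcn and Tcf7 were also lower in M KSR3 than in M KSR5, by 2.82, 1.66 and 0.96, and Ctnnb1, the gene of beta-catenin, was higher in F KSR2 than in F KSR4, with 0.84 (SE 0.14, adjusted p = 0.00513). Of the 32 pathway genes tested, 6 differed among the 4 lines, beside 14.1% of all genes.

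**Figure D4:**
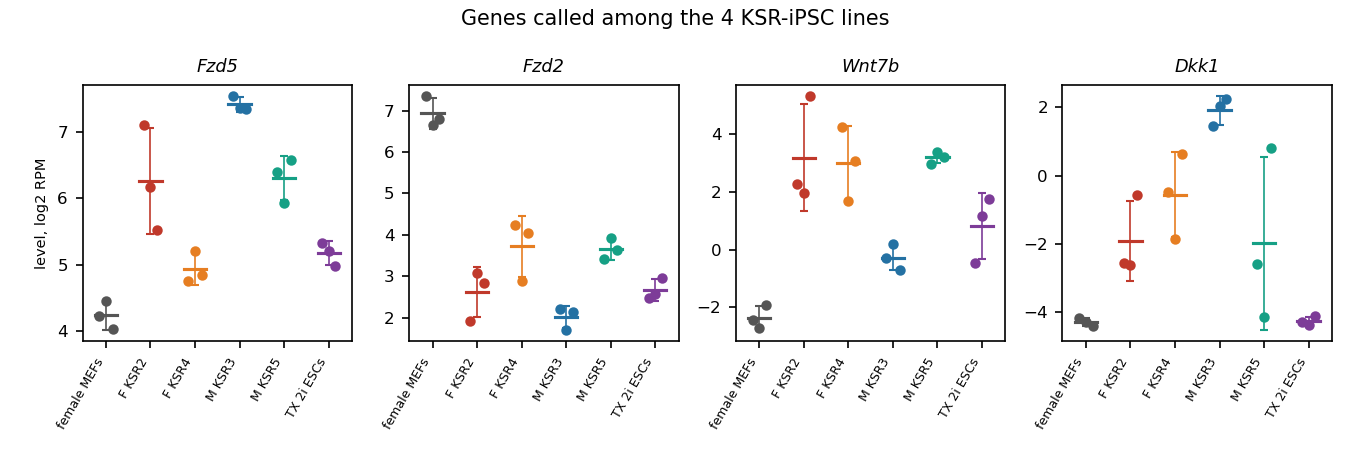
Level (y axis, log2 RPM, scaled for each panel) of Fzd5, Fzd2, Wnt7b and Dkk1 in the 6 groups (x axis), with points for the 3 libraries, horizontal bars for means and vertical bars for 1 SD. M KSR3 is the highest line for Fzd5 and Dkk1 and the lowest for Fzd2 and Wnt7b.

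Female and male KSR-iPSCs, 6 libraries each from 2 lines, were compared in a fit of these 12 libraries alone. Of the 31 genes tested, 0 were called by limma, 1 had an unadjusted p under 0.05, and limma-voom on recovered reads called 0, while 2.87% of the 13609 genes tested were called. The 1 gene was Fzd5, from 4.75 to 7.10 with a median of 5.37 in the female and from 5.94 to 7.53 with a median of 6.96 in the male libraries, a log2 difference of -1.25 (SE 0.37, adjusted p = 0.0804). The sexes overlapped through F KSR2, and the adjusted p ran from 9.24e-04 to 0.189 over the alternatives, passing without replicate 1 of F KSR2 and in a fit of all 18 libraries. Wnt7b and Fzd4 followed, with 1.63 (SE 0.79, adjusted p = 0.280) and -0.76 (SE 0.38, adjusted p = 0.296). With 2 clones from 1 embryo per sex, sex and clone cannot be told apart.

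Allelic reads were enough, at 5 or more in each of the 3 libraries of a group, for 26 of the 47 genes in MEFs and for 11 to 17 in the pluripotent groups. The maternal share (mean ± SD over 3 libraries) lay between 25 and 75% for 25 of 26 genes in MEFs, 12 of 16 in TX 2i ESCs, 15 of 17 in M KSR5 as in M KSR3, 13 of 16 in F KSR4 and 9 of 11 in F KSR2. Other than Sfrp1 and Lrp6, the genes outside these limits had at most 42 allelic reads in a library. Each share was set beside the median share of genes within 5 Mb with at least 50 allelic reads in the group. All cells had a BL6 mother and a CAST father, without the reverse cross. Parent of origin and strain thus cannot be told apart in these shares.

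Sfrp1 was read mainly from the maternal (BL6) allele in all pluripotent groups. Its maternal share was 81.4% ± 2.73 in TX 2i ESCs, 72.5% ± 2.95 in M KSR5, 81.2% ± 1.83 in M KSR3, 82.7% ± 2.37 in F KSR4 and 77.4% ± 5.51 in F KSR2, against 62.3% ± 1.18 in the MEFs. Each of the 15 pluripotent libraries lay above each MEF library. The neighbours stood at 57.1%, 51.6%, 67.3%, 65.8%, 51.8% and 51.2% in the same order, so the neighbourhood was itself maternal in F KSR4 and M KSR3. The shares rest on 198 to 1869 allelic reads per library.

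Lrp6 on chromosome 6 was 96.1% ± 4.75 maternal in F KSR2, with its neighbours at 97.0%, and between 50.7 and 60.2% in the other 5 groups. In TX 2i ESCs the neighbours of Lrp6 stood at 27.8% while Lrp6 itself stood at 50.7% ± 1.06. The level of Lrp6 in F KSR2, at 5.78, 5.25 and 5.63, overlapped that of the other lines. In M KSR3, Fzd7 and Fzd5 on chromosome 1 were 74.9% ± 0.250 and 71.7% ± 2.85 maternal, with neighbours at 65.9% and 69.0%, and Fzd2 on chromosome 11 was 67.0% ± 11.4, with neighbours at 69.2%. In the other 3 lines these shares were 57.0 to 59.2% for Fzd7, 49.0 to 51.8% for Fzd5 and 42.7 to 49.9% for Fzd2. Fzd5 and Fzd2, of which the first was higher and the second lower in M KSR3 than in M KSR5, thus both sat in regions with more maternal than paternal reads in M KSR3. Wnt8a was 34.5% ± 3.21 maternal in M KSR5, 33.5% ± 16.3 in F KSR4 and 47.6% ± 4.12 in M KSR3, on 7 to 68 allelic reads per library. No test was run on these shares.

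**Figure D5:**
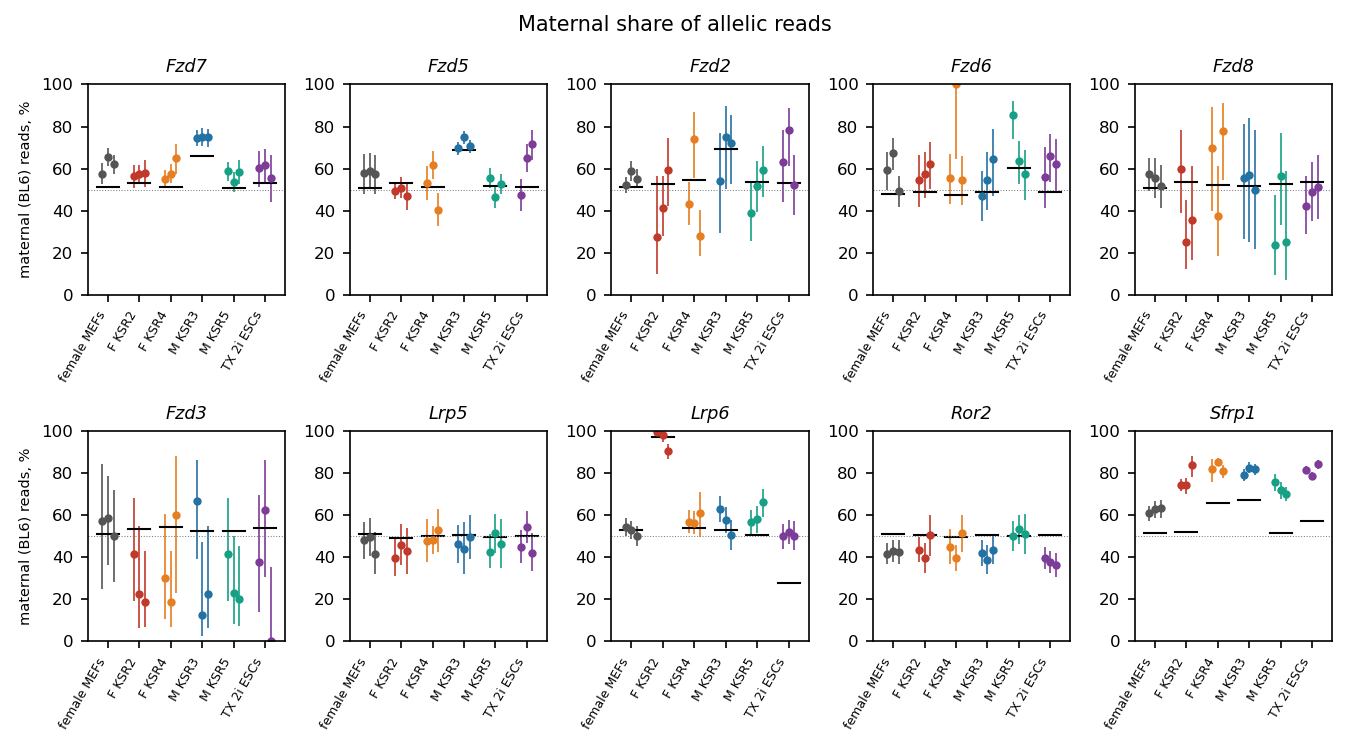
Maternal share of allelic reads (y axis, percent) of the 10 genes with at least 5 allelic reads in all 18 libraries, in the 6 groups (x axis), with 1 point per library and its 95% Wilson interval. Black bars give the median share of genes within 5 Mb with at least 50 allelic reads in the group, and Sfrp1 lies above its bar in every group.

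The 7 genes that were not tested had few reads everywhere. Wnt2b reached 43 reads, in a MEF library, Rspo4 19, Wnt7a 17 and Wnt8b 7. Dkk4 and Wnt9b did not exceed 3 reads in any library, and Wnt1 had 1 read in each of 3 libraries. At this depth a library without a read of a gene allows up to 3 reads, so absence was not shown for any of them.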

How the data were processed

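RNA-seq of 18 libraries was used, 3 for each of 6 groups, and 82 amplicon bisulfite samples were not analysed here. Per the submitters' processing notes and the methods, reads were trimmed with Trim Galore, aligned with HISAT2 2.1.0 to GRCm38 and counted over genes in SeqMonk. The authors deposited log2 RPM, without length correction, for all reads and for those unassigned or assigned to BL6 or CAST. Whole reads were recovered from the values, within 0.05 read. A gene without reads is given the value of 0.9 read in the table.

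Levels were fitted with limma 3.58.1 (trend) in R 4.3.3, with a mean per group over all 18 libraries and Benjamini-Hochberg adjustment over all genes above 0 in 3 or more libraries. Female and male lines were fitted on 12 libraries. The deposited log2 values are not counts, so limma-voom on recovered reads served only as an alternative. Other alternatives were the filter, log2(RPM + 1), median centring, a 2-fold limit, the groups in the fit, a replicate block and leaving out libraries. Leaving out replicate 3 of M KSR5 and replicate 2 of F KSR4 together was added after the data were seen. The fits were tested on simulated data. Full statistics were given for up to 8 genes in each direction by size of log2 difference, and for up to 5 other pathway genes. Maternal shares needed 5 allelic reads per library. Intervals and floors cover counting error only.

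The genes and lists were chosen with earlier results of these data known. The table's identifier for Rspo1 belongs to another gene in the annotation used here, while its symbol and position match. The labels call the libraries of a group biological triplicates, and p-values measure the spread between these libraries, not between animals or clones.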

Additional observations from a re-analysis of the deposited data

Results flagged for a closer look

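Of the 40 genes tested, 4 differed among the 4 KSR-iPSC lines by limma's moderated F test, with adjusted p = 0.000373 for Fzd5, 0.00786 for Fzd2, 0.0109 for Wnt7b and 0.0216 for Dkk1. Over all genes tested, 14.1% differed by this test. The 4 genes were singled out because the lines, which share medium and induction, differed by a test of the difference itself. Dkk1 lost its call without any 1 library of M KSR3 or in a fit of the iPSC libraries alone. Wnt7b lost its call with limma-voom or without replicate 3 of M KSR3. M KSR3 had the highest mean of the 4 lines for Fzd5 and Dkk1 and the lowest for Fzd2 and Wnt7b, and each line is 1 clone.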

How the results depend on the processing

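No call changed direction under any alternative run. Fitting only the groups compared gave 0 genes of the family and 0 of all genes between F KSR2 and F KSR4, 7 and 1590 between M KSR3 and M KSR5, 3 and 468 for F KSR4 against TX 2i ESCs, 15 of the family for M KSR5 and 5397 of all genes for M KSR3 against TX 2i ESCs, and 966 genes among the 4 lines. Median centring gave 0 of the family between F KSR2 and F KSR4, and log2(RPM + 1) gave 14 for M KSR5 against TX 2i ESCs. A 2-fold limit left 237 genes between the sexes and 2038 for KSR-iPSCs against TX 2i ESCs. With all 18 libraries in the fit, 1 gene of the family and 1523 of all genes differed between the sexes, and with line as a random effect 138 did.

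Leaving out replicate 3 of M KSR5 and replicate 2 of F KSR4, chosen after seeing the data, gave 2 and 315 between the female lines, 8 and 1181 between the male lines, 13 for F KSR4, and 2782 and 4433 genes for F KSR2 and M KSR3, against TX 2i ESCs, 9 and 3202 among the lines, and 671 genes between the sexes. Leaving out single libraries gave 1008 to 3950 genes and 2 to 9 of the family among the lines, 66 to 1652 and 0 to 5 between the female lines, 147 to 1180 and 0 to 6 between the male lines, 187 to 518 and 0 to 1 between the sexes, and 2151 to 4322 and 6 to 16 for KSR-iPSCs against TX 2i ESCs. Against TX 2i ESCs it gave 1179 to 2650 and 4 to 11 for F KSR2, 1412 to 3035 and 5 to 12 for F KSR4, 2212 to 4288 and 5 to 13 for M KSR3, and 1754 to 3403 and 5 to 13 for M KSR5. Median centring moved the split of all genes from 84 higher and 83 lower to 65 and 143 between the female lines, and from 216 and 174 to 283 and 115 between the sexes.

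Correlations of the deviations from the group means were computed between libraries with the same replicate number. The r ran from -0.15 to 0.252 for replicate 1, -0.197 to 0.382 for replicate 2 and -0.018 to 0.306 for replicate 3. Whether the numbers pair the libraries is not settled by these values. With a replicate block, 35 of the family were called between MEFs and pluripotent groups, 13 between KSR-iPSCs and TX 2i ESCs, 1 between the female lines, 5 between the male lines, 5 among the lines and 0 between the sexes. The block gave 282 genes between the female lines, against 167 without it. The causes of these changes were not tested. With 3 libraries per group and genes of a few reads, small differences were not detectable.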
